A study of Mus musculus with 20 samples.

Results

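Medullary thymic epithelial cells of Aire knockout (KO) mice were compared between 2 inbred strains, NOD and BALB/c (BALB below). All samples titled as Aire KO of these strains were taken, 3 NOD mice and 4 BALB mice, which make 7 of the 20 arrays of the series. The other arrays hold Aire wild-type (WT) mice of both strains (3 NOD, 4 BALB) and C57BL/6 (B6) mice (3 WT, 3 KO). Every mouse was a male aged 3 to 4.5 weeks, and each sample came from an individual thymus. Cells were sorted as negative for CD45, positive for the epithelial marker stained by G8.8, with intermediate Ly51 and much MHC class II. The titles call the knockout aireKO, and the sources used here give neither the deleted exons nor the number of backcrosses. The question was which strain differences remain, and which are present only then by a test, when Aire is absent.

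Medullary epithelial cells display proteins of many peripheral organs to developing T cells, and Aire is the regulator known for driving much of that ectopic transcription. T cells that bind these proteins strongly are deleted or turned into regulatory cells. NOD mice develop autoimmune diabetes spontaneously, whereas BALB mice do not, and loss of Aire is known to cause organ autoimmunity whose targets depend on the strain. Some tissue-specific genes in these cells need Aire and some do not.

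Values are log2 of the deposited array intensity, and a difference is NOD minus BALB on that scale, where 1 means 2-fold. A probe set passed when its limma p, adjusted by the Benjamini-Hochberg method over all 45037 probe sets, was below 0.05. Array medians ran from 86.3 to 90.9 intensity units, and over all log2 values the median was 6.48 and the 5th percentile 3.77. The strain labels were checked with H2-Ea, the alpha chain of the class II molecule I-E. The H2 haplotypes of B6 and NOD carry an allele of this gene that is known to be silent, and that of BALB a functional one. The H2-Ea probe set with the widest range averaged 13.81 in BALB KO, 5.97 in NOD KO and 5.02 in B6 KO mice, as the labels require. Aire itself read 11.89, 12.04 and 11.80 in NOD KO mice and 11.07, 11.20, 11.01 and 10.53 in BALB KO mice. It was not lower in KO than in WT mice of either strain (0.72 in NOD, adjusted p = 0.17, and 0.70 in BALB, adjusted p = 0.073, limma), and the position of its probes against the deletion is unknown here, so it does not check the genotype labels. In both strains many more genes were below than above WT by 2-fold or more in KO mice, 497 against 126 in NOD and 578 against 96 in BALB. Ins2, a proinsulin gene known to need Aire here, was 0.72 lower in NOD KO (adjusted p = 0.03) and 1.14 lower in BALB KO than in WT mice (adjusted p = 0.00013). Epithelial markers stood high in both KO groups, with Epcam between 11.20 and 12.25 and Krt8 between 12.17 and 12.72 in the 7 mice.

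Between the KO mice 3959 of 45037 probe sets passed (8.79%), 1712 higher and 2247 lower in NOD. At 2-fold or more 1279 remained, 450 higher and 829 lower, and 21 and 31 of these exceeded 8-fold. Counted by gene, with the brightest probe set standing for each gene, 2059 of 18193 genes passed (11.3%). Of these, 849 were higher (4.67%) and 1210 lower (6.65%) in NOD, and 707 differed by 2-fold or more (3.89%). The median over all genes was 0.03. Leaving out NOD KO mouse 2 left 2296 probe sets and leaving out any other KO mouse left 2677 to 3516. The mice fall into runs of sample codes, and NOD KO mouse 1 shares a run with BALB KO mice 3 and 4; within that run all 2059 genes kept their sign, which includes the mice that chose them. BALB KO mice 1 and 2 lie in a run without NOD mice, and NOD KO mice 2 and 3 in a run without BALB mice. For these mice strain and run cannot be told apart. With the run as a block 4253 probe sets passed, 2596 of them among the 3959. That fit links the strains through the shared run alone. In bulk samples fewer cells of a type and less RNA per cell cannot be told apart, nor can a strain's transcript level and the match of its sequence to the array's probes.

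**Figure D1:**
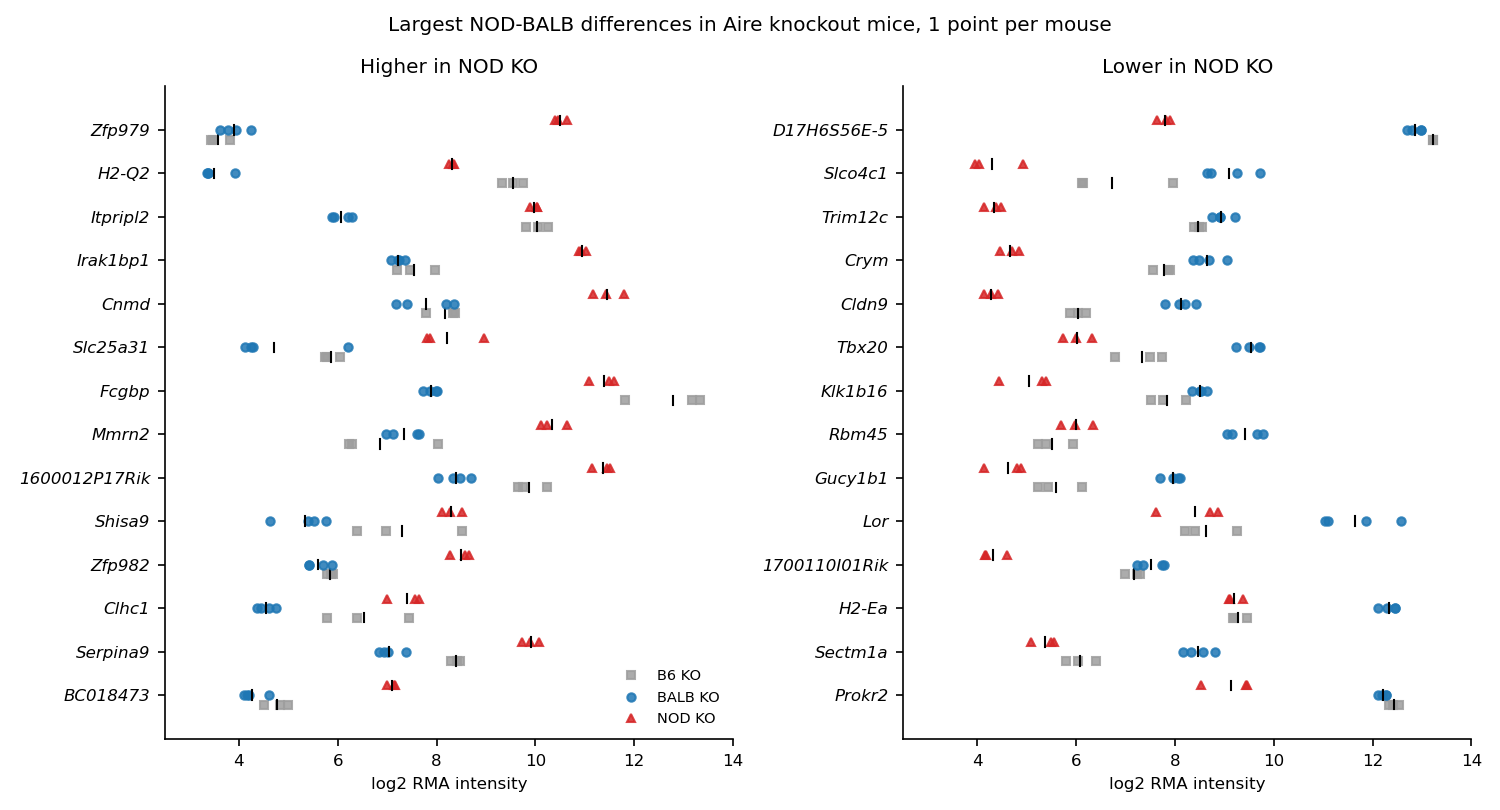
Log2 intensity (x axis) of the 14 genes with the largest positive and the 14 with the largest negative NOD minus BALB difference in KO mice, 1 symbol per mouse and a bar at each group mean. NOD KO mice (triangles) and BALB KO mice (circles) do not overlap for any of the 28, as the choice required; B6 KO mice (squares) lie near NOD for Itpripl2 and near BALB for Zfp979.

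An H2-Ea probe set other than its brightest differed by -7.84. With each gene taken at its brightest probe set, the largest measured difference was in Zfp979, a zinc finger gene. Its log2 intensity was 10.63, 10.39 and 10.46 in the NOD KO mice and 3.94, 4.25, 3.78 and 3.62 in the BALB KO mice. The BALB values lie near the 5th percentile of the arrays and the NOD values far above the median, a difference of 6.60 (SE 0.18, adjusted p = 4.7e-14, limma) that has no fold here, because without detection calls the dim side has no measured background. Zfp982, its neighbour in the genome and a gene of the same type, read 8.27 to 8.65 in NOD KO and 5.42 to 5.88 in BALB KO mice (difference 2.90, SE 0.16, adjusted p = 1.4e-09). Neither gene moved with Aire, since KO minus WT was between -0.25 and 0.31 in both strains for both genes and did not pass.

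H2-Q2, a class Ib MHC gene, read 8.34, 8.26 and 8.36 in NOD KO against 3.38, 3.93, 3.35 and 3.37 in BALB KO mice (4.81, SE 0.17, adjusted p = 1.7e-12, with the same limit on its dim side). Itpripl2, which encodes a membrane protein related to an inositol trisphosphate receptor interactor, read 9.89 to 10.03 against 5.88 to 6.28 (3.91, adjusted p = 4.4e-11). Irak1bp1, a binding partner of the kinase IRAK1 in innate signalling, read 10.88 to 11.03 against 7.07 to 7.36 (3.72, adjusted p = 2.8e-10). Cnmd, chondromodulin of cartilage, stood at 11.80, 11.16 and 11.42 in NOD KO and at 8.18, 8.35, 7.40 and 7.19 in BALB KO mice (3.68, SE 0.33, adjusted p = 7.5e-07). All 4 were also higher in WT NOD than in WT BALB mice. The others of the 14 were Slc25a31, a mitochondrial ADP/ATP carrier of germ cells (3.49), Fcgbp, a mucus protein that binds IgG Fc (3.49), Mmrn2, an endothelial matrix protein (2.99), 1600012P17Rik (2.98), Shisa9, a modulator of AMPA receptors (2.97), Clhc1 (2.87), Serpina9, a serpin of germinal centre B cells (2.86), and BC018473 (2.83). Their adjusted p ranged from 1e-10 for BC018473 to 0.0013 for Shisa9. For Slc25a31, BALB KO mouse 1 read 6.21 and the other BALB KO mice 4.12 to 4.29, and that mouse lies nearer the NOD range.

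The paralogues Trim12c and Trim5, TRIM ubiquitin ligases of the antiviral Trim5 family that lie close together, differed in opposite directions. Trim12c read 4.39, 4.48 and 4.14 in NOD KO mice and 8.91, 8.74, 8.91 and 9.21 in BALB KO mice (-4.61, SE 0.16, adjusted p = 2.1e-12). Its other probe set was dim in both groups (3.56 and 3.77) and did not pass. Trim5, named after its values were seen, read 7.36, 7.87 and 8.33 against 5.27, 5.66, 5.58 and 5.07 (2.46, SE 0.21, adjusted p = 3.5e-07). WT mice gave the same pattern, -5.31 for Trim12c and 3.40 for Trim5. Near-identical paralogues can share probe signal, so the 2 values may not be fully separate. The stretches before their starts are nearly the same in the reference, and are printed because the neighbours differ in direction. RefSeq (GRCm38.p6) places them on the minus strand, at chr7:104353350-104353580 for Trim12c and chr7:104288127-104288356 for Trim5. They match at 219 of 231 aligned positions (94.8%), and capitals mark the 11 substitutions and the 1 gap. The reference is that of B6, so these are not the NOD or BALB alleles.
Trim12c: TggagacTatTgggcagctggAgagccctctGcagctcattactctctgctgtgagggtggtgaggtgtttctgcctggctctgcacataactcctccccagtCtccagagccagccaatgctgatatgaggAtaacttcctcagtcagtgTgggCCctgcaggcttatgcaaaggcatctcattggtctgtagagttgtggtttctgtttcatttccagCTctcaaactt
Trim5: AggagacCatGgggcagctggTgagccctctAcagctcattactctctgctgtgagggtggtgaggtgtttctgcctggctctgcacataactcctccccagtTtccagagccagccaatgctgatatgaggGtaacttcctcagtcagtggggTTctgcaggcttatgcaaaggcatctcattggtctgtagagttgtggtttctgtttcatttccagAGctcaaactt

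Among genes lower in NOD, D17H6S56E-5, a transcript of the MHC class III region, came first by brightest probe set. It read 7.83, 7.65 and 7.91 in NOD KO mice and 12.70, 12.80, 12.97 and 12.98 in BALB KO mice (-5.07, SE 0.10, 33.5-fold, adjusted p = 5.3e-16), and its other probe set gave -6.46. Slco4c1, an organic anion transporter of kidney, read 3.96, 4.92 and 4.04 against 8.65, 8.73, 9.25 and 9.73 (-4.78, SE 0.49, adjusted p = 4.8e-06). In WT mice the Slco4c1 difference was -1.54 and did not pass (adjusted p = 0.079); its interaction with genotype was -3.25 (adjusted p = 0.072), which passed with same-numbered mice blocked as pairs (adjusted p = 0.0015). The other Slco4c1 probe set differed by -2.73 between KO mice and passed the interaction without pairs (-1.80, adjusted p = 0.014). Crym, a thyroid hormone-binding crystallin, read 4.45 to 4.85 in NOD KO and 8.36 to 9.06 in BALB KO mice (-3.98, adjusted p = 2e-10). Cldn9, a claudin of tight junctions, read 4.14 to 4.41 against 7.80 to 8.43 (-3.85, adjusted p = 3.9e-09). Tbx20, a heart transcription factor, differed by -3.52, the RNA-binding gene Rbm45 by -3.41, and Gucy1b1, a subunit of soluble guanylate cyclase, by -3.34. Lor, the cornified envelope protein loricrin, read 7.62, 8.88 and 8.71 against 11.09, 11.04, 11.87 and 12.57 (-3.24, SE 0.42, adjusted p = 4.6e-05), with wider spread than the rest. The remaining genes were 1700110I01Rik (-3.21), H2-Ea (-3.13), Sectm1a (-3.10), and Prokr2, a prokineticin receptor (-3.06). In all 28 genes the sign was the same within the shared run, which the choice of genes without overlap fixed in advance. Of the 28, 15 had other probe sets, 22 in all; 14 of these passed with the same sign, 0 with the opposite sign, and 8 did not pass. The other 100 named genes that passed had 72 further probe sets; 33 passed with the same sign, 0 with the opposite sign and 39 did not pass, so many calls below rest on 1 probe set.

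Klk1b16, a tissue kallikrein of the salivary gland, was also among the 14, at 4.45, 5.38 and 5.31 in NOD KO and 8.66, 8.34, 8.50 and 8.53 in BALB KO mice (-3.46, SE 0.30, adjusted p = 6.6e-07). Klk1b11, a close relative, read 6.55, 7.08 and 6.56 against 9.10, 9.17, 8.70 and 8.64 (-2.17, SE 0.23, adjusted p = 6.5e-06). Klk1b1 (-1.32) and Klk1b24 (-0.90) passed as well, and these 4 were all the members of the salivary and lacrimal list that did, of 25 measured. No member was higher in NOD past the test, though 7 of the 25 differences were above 0, and the median was -0.27. Of all genes 4.67% were higher and 6.65% lower. The 9 measured kallikreins of this family share long stretches and probes may read several, so they are not independent. In NOD mice Klk1b16, Klk1b11, Klk1b1 and Klk1b24 fell from WT to KO by 1.92, 1.41, 2.73 and 1.38; in BALB mice Klk1b1 and Klk1b24 fell by 1.30 and 0.96, and Klk1b16 (-0.54) and Klk1b11 (-0.12) did not pass. The interaction did not pass for any of the 4 without blocking (adjusted p = 0.49 for Klk1b16 and 0.064 for Klk1b1), and passed for Klk1b16, Klk1b11 and Klk1b1 with pairs blocked (adjusted p = 0.012, 0.032 and 0.018). The reference stretches before the starts of the pair with the largest differences, both on the plus strand of GRCm38.p6, are chr7:44137041-44137289 (Klk1b16) and chr7:43995627-43995875 (Klk1b11). They match at 223 of 249 positions (89.6%), and capitals mark the 26 substitutions.
Klk1b16: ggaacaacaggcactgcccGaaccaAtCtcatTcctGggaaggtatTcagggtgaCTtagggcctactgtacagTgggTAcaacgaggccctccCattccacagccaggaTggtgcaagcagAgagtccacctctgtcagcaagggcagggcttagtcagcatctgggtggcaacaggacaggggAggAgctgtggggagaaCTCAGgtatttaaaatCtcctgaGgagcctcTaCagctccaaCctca
Klk1b11: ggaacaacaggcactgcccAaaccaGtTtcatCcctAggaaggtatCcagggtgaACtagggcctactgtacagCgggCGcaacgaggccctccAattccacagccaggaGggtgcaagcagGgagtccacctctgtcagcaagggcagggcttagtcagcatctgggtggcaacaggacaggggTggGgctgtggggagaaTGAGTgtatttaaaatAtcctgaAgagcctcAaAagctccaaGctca

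Most strain differences of the KO mice had the same direction in WT mice, which are other animals. Same-numbered WT and KO mice of a strain fall in the same code run and shared deviations (correlations 0.31 to 0.67). The WT comparison is therefore not independent of the KO comparison. Of the 3959 probe sets that passed in KO mice, 3824 (96.6%) had the same sign in WT mice and 1749 (44.2%) also passed there with that sign. These 1749 are 63.3% of the 2764 that passed between WT mice (6.14%), where 8.28% of genes did. At 2-fold in both, 621 persisted, which is 48.6% of the KO and 68.3% of the WT probe sets past 2-fold. Over the probe sets past 2-fold in KO mice the median size was 1.36 in KO and 1.01 in WT mice, and the probe sets were chosen on the KO value. A probe set that passed in KO but not in WT mice is no sign of a genotype difference by itself: of 2204 such probe sets, 2159 (98.0%) did not pass, in the fit without pairs, the interaction test, which asks whether the strain difference differs between genotypes. With same-numbered mice blocked as pairs 2003 of them (90.9%) did not pass and 201 did.

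**Figure D2:**
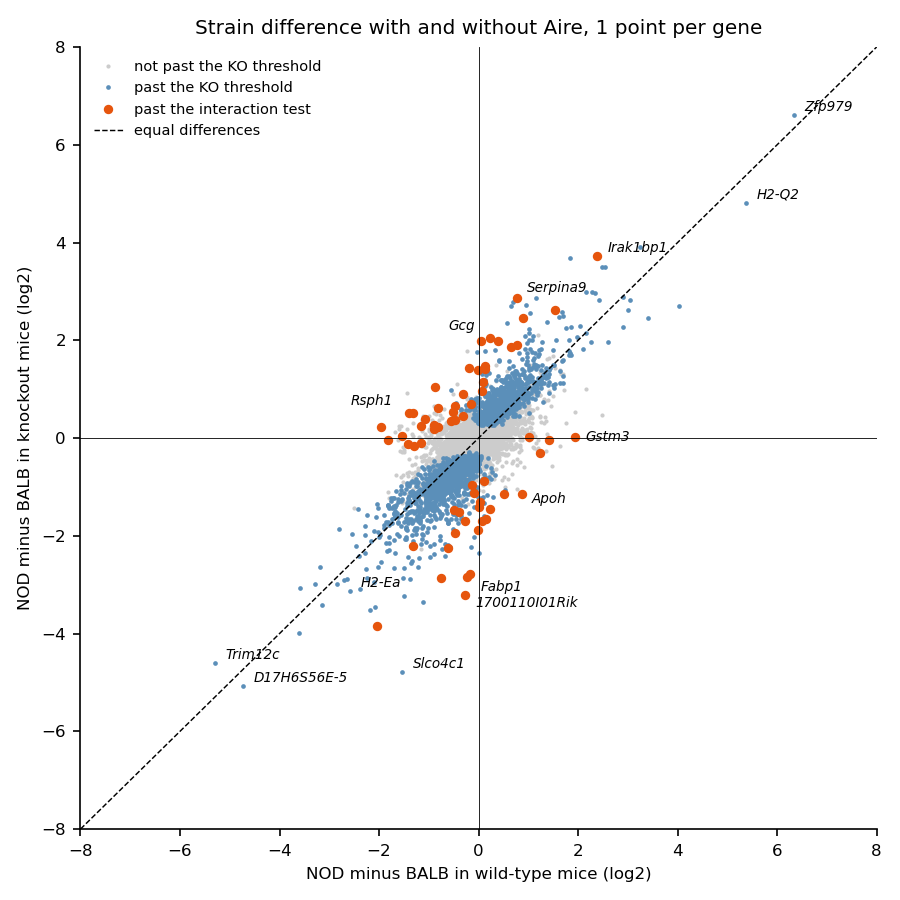
NOD minus BALB difference of each of 18193 genes in WT mice (x axis, log2) and in KO mice (y axis, log2). Genes such as Zfp979, H2-Q2, Trim12c and D17H6S56E-5 lie near the dashed line of equal differences, and the 63 genes past the interaction test lie off it.

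The interaction test passed for 100 probe sets (0.222%) and 63 genes (0.346%). At an unadjusted p below 0.05 it would be 1929 probe sets. Of the 100, 45 passed between KO mice and not between WT mice, 31 the reverse, 18 passed in both with the same sign and 6 in both with opposite signs. Same-numbered WT and KO mice of a strain shared their deviations, with correlations of 0.31 to 0.67 in the 7 pairs. With the pairs as a block 499 probe sets passed, all 100 among them. Single mice weighed on the count: it was 45 without NOD KO mouse 2, 49 without NOD KO mouse 1, 49 without NOD WT mouse 2 and 64 without NOD WT mouse 3.

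Among the genes whose difference was more negative in KO mice were several known from liver and gut epithelium. By the interaction test 3 of 28 listed liver genes and 1 of 22 intestine genes passed, with 0.346% of all genes as background. Fabp1, the fatty acid-binding protein of liver and intestine, read 5.77, 6.43 and 6.15 in NOD KO mice and 8.91, 9.17, 8.30 and 9.23 in BALB KO mice. The WT mice overlapped, at 8.37 to 8.73 in NOD and 8.65 to 8.88 in BALB. The strain difference was -2.79 in KO (SE 0.26, adjusted p = 1.2e-06) and -0.17 in WT mice (adjusted p = 0.81), and the interaction -2.62 (SE 0.36, adjusted p = 0.0055). From WT to KO, Fabp1 fell by 2.46 in NOD mice (adjusted p = 1.6e-05) and differed by 0.16 in BALB mice (adjusted p = 0.79). Its other probe set gave an interaction of -2.75 (adjusted p = 0.021).

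Krt20, a keratin of gut epithelium, had the same pattern, at 8.73, 7.70 and 7.95 in NOD KO against 10.85, 10.79, 10.70 and 11.51 in BALB KO mice (interaction -2.60, adjusted p = 0.0063). From WT to KO, Krt20 fell by 2.26 in NOD (adjusted p = 5e-05) and differed by 0.34 in BALB (adjusted p = 0.51). Cyp3a11, a drug-metabolising cytochrome P450 of liver, read 6.31, 6.23 and 6.43 against 7.72, 7.80, 8.29 and 8.12 (interaction -1.82, adjusted p = 0.015), having fallen by 1.78 in NOD (adjusted p = 7.9e-05) and differed by 0.04 in BALB (adjusted p = 0.95). Apoa1, the main protein of high-density lipoprotein, read 5.82, 6.09 and 6.24 against 7.54, 8.07, 7.50 and 8.57 (interaction -1.87, adjusted p = 0.017). Apoh, beta-2-glycoprotein I, reversed: NOD stood 0.86 above BALB in WT mice (adjusted p = 0.012) and 1.15 below in KO mice (adjusted p = 0.00083), with an interaction of -2.02 (adjusted p = 0.0055). From WT to KO it fell by 2.22 in NOD (adjusted p = 2.6e-06) and differed by -0.20 in BALB (adjusted p = 0.62). The dimmer second probe set of Apoh showed no such change (interaction -0.32, adjusted p = 1). 1700110I01Rik, an RNA without a known role, had the largest interaction of the 63 genes past that test, -2.93 (SE 0.30, adjusted p = 0.00045). It fell by 3.18 from WT to KO in NOD and by 0.25 in BALB, the latter not past the test. The calls for Apoa1 and Cyp3a11 were lost without NOD KO mouse 2 (adjusted p = 0.053 and 0.058), and Apoa1 also without NOD KO mouse 1 (0.062), NOD WT mouse 2 (0.051) or NOD WT mouse 3 (0.055).

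The stretches before the starts of Cyp3a11 and Fabp1 are printed because the interaction of both concerns genes that liver and gut regulators are known to drive. 3 letter strings were searched at any position on both strands of the 250 bases before each annotated start. Their matches do not overlap in the printed stretches, and that of TATAAA in Cyp3a11 lies at the end away from the start. The strings were CAAAGTCCA, a form of the site of HNF4, GTTAAT, the HNF1 half-site, and TATAAA, the letters of the TATA box. Of 32851 RefSeq windows 0.384%, 6.43% and 12.4% held them. Of the 16 list genes of liver or intestine that were lower in NOD KO mice, 14 had a window, and the strings were in 1 (Cyp3a11), 2 (Fabp1 and Guca2b) and 4 (Apob, Cyp3a11, Fabp1 and Reg3b). Capitals mark the matches. In GRCm38.p6 the Cyp3a11 stretch is chr5:145879855-145880104 on the minus strand and the Fabp1 stretch chr6:71199629-71199878 on the plus strand. Among the regulators themselves, 9 measured transcription factors of liver and gut, listed after values were seen, gave 0 calls between strains in KO mice. Of all genes 11.3% passed there, so with so few genes nothing is read from that count. Hnf4a differed by -0.26 (adjusted p = 0.29), and the part of these regulators was not tested.
Cyp3a11: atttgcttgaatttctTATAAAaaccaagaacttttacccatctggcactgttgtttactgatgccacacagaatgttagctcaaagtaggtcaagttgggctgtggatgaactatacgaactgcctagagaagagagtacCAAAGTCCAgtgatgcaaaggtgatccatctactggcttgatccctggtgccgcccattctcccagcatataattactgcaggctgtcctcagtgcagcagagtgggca
Fabp1: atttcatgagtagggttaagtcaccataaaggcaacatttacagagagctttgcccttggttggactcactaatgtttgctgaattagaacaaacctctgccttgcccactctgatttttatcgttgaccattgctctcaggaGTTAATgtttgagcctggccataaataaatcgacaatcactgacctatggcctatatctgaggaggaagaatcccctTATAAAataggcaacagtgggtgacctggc

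For other genes the difference between KO mice went with a rise in 1 strain. Serpina9 read 9.73, 10.08 and 9.90 in NOD KO against 7.02, 7.37, 6.93 and 6.85 in BALB KO mice, having risen by 2.62 from WT to KO in NOD (adjusted p = 9.3e-07) and differed by 0.52 in BALB (adjusted p = 0.14; interaction 2.09, adjusted p = 0.0063). Lrit2, a leucine-rich repeat protein of the retina, rose by 2.22 in NOD and differed by 0.28 in BALB (interaction 1.94, adjusted p = 0.0045). In the other direction Farp2, an exchange factor for small GTPases, rose by 1.91 in BALB and not in NOD (-0.19, not past the test; interaction -2.10, adjusted p = 0.026). Dusp15, a dual-specificity phosphatase, rose by 1.72 in BALB and differed by -0.04 in NOD (interaction -1.75, adjusted p = 0.008). Krt79, a keratin of skin glands, changed sides, from -0.88 in WT to 1.04 in KO mice (interaction 1.92, adjusted p = 0.014). Cldn9 was lower in NOD in both genotypes and more so in KO mice (-2.04 in WT, -3.85 in KO, interaction -1.81, adjusted p = 0.022), and Irak1bp1 higher in both (2.39 and 3.72, interaction 1.33, adjusted p = 0.042). The interaction call of Krt79 was lost without NOD KO mouse 1 (adjusted p = 0.051), that of Cldn9 without BALB WT 2, BALB KO 1 or 4, NOD WT 2 or 3 or NOD KO 1 or 2 (0.053 to 0.086), and that of Farp2 without BALB WT 1 or 2, BALB KO 4, NOD WT 1 or 3 or any NOD KO mouse (0.053 to 0.104). The second probe sets of Farp2 (interaction -0.04), Dusp15 (-0.39), Cldn9 (-0.26) and Irak1bp1 (0.41) did not pass that test.

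Gcg, the precursor of glucagon, fell from WT to KO in BALB by 1.75 (adjusted p = 6.5e-05) and differed by 0.05 in NOD (adjusted p = 0.97). It thus stood between 7.78 and 8.50 in NOD KO mice and at 5.76, 5.60, 5.83 and 7.01 in BALB KO mice, with an interaction of 1.81 (adjusted p = 0.039). Itln1, an intelectin of intestinal cells, read 8.86, 9.04 and 8.78 against 6.98, 7.28, 6.88 and 6.49 (interaction 1.59, adjusted p = 0.015), and Ddc, which makes dopamine and serotonin, differed by 1.43 in KO and -0.20 in WT mice (interaction 1.62, adjusted p = 0.024). The interaction call of Gcg was lost without any mouse except BALB KO 4 and NOD KO 3 (adjusted p = 0.059 to 0.15), that of Ddc without BALB WT 2, BALB KO 1 or 3, NOD WT 2 or 3 or NOD KO 1 or 2 (0.0501 to 0.096), and that of Itln1 without NOD KO mouse 2 (0.062). With pairs blocked Gcg and Ddc passed (adjusted p = 0.0092 and 0.00032). The second probe set of Ddc did not pass the interaction (0.61).

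**Figure D3:**
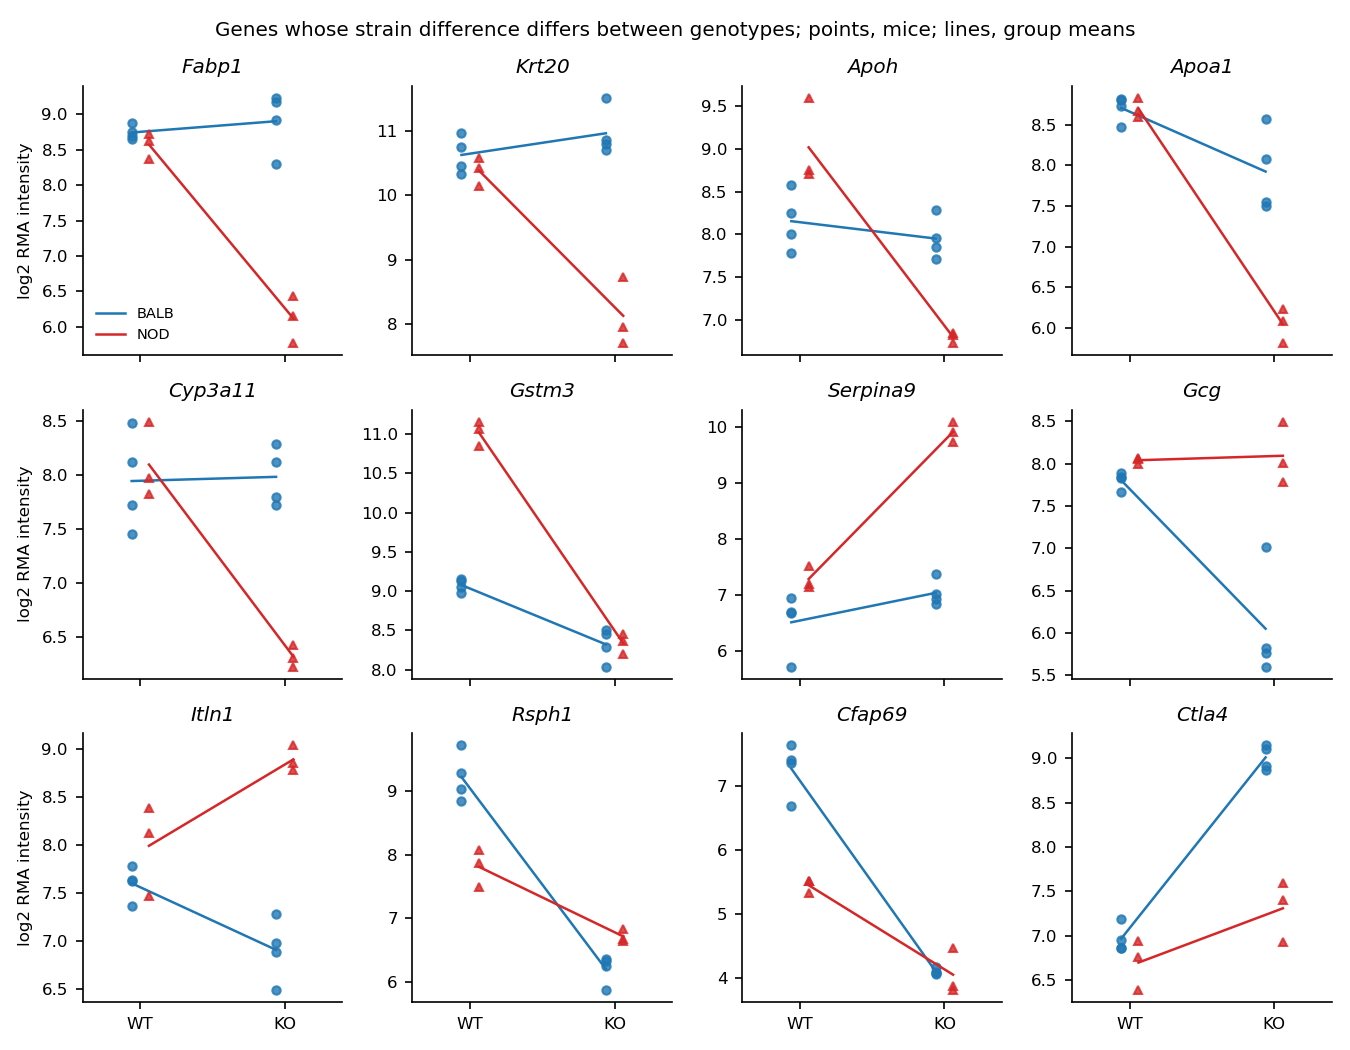
Log2 intensity (y axis) of 12 genes past the interaction test in WT and KO mice of BALB (circles) and NOD (triangles), 1 point per mouse with lines joining group means. Fabp1, Krt20, Apoh and Cyp3a11 fell from WT to KO in NOD and did not pass that test in BALB, Gcg and Itln1 are lower in BALB KO than in NOD KO mice, and the groups of Rsph1 and Cfap69 lie farther apart in WT than in KO mice.

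A second pattern was a strain difference of WT mice that did not pass in KO mice. Rsph1, a radial spoke protein of motile cilia, read 7.49, 8.07 and 7.86 in NOD WT and 8.84, 9.28, 9.71 and 9.02 in BALB WT mice (-1.40, adjusted p = 0.00017). In KO mice it read 6.64 to 6.83 in NOD and 5.88 to 6.37 in BALB, without overlap and with NOD the higher (0.51, adjusted p = 0.11), giving an interaction of 1.92 (SE 0.27, adjusted p = 0.0058). Cfap69 went from -1.82 to -0.05 (interaction 1.77, adjusted p = 0.0068), Fam183b from -1.31 to 0.51 (1.82, adjusted p = 0.04) and the defensin Defb19 from -1.97 to 0.22 (2.18, adjusted p = 0.042). The call of Defb19 was lost without any mouse except BALB WT 4 (adjusted p = 0.051 to 0.128) and that of Fam183b without any except BALB WT 1, BALB KO 1 and NOD WT 3 (0.056 to 0.135). The 2 dim other probe sets of Cfap69 showed no such change. Gstm3, a glutathione transferase, was 1.94 higher in NOD WT than BALB WT mice (adjusted p = 4.9e-06) and level in KO mice, at 8.20, 8.45 and 8.36 against 8.50, 8.04, 8.29 and 8.46 (0.01, adjusted p = 0.98; interaction -1.93, adjusted p = 0.0058). Its second, dim probe set did not pass (interaction -0.55).

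Genes of motile cilia were therefore counted as a family, picked by name (Rsph, Cfap, Dnah, Tekt) after these values were seen. Of 46 measured, 1 was higher and 15 lower in NOD between WT mice (background 3.03% and 5.25%). Between KO mice 6 were higher and 1 lower (background 4.67% and 6.65%). The interaction passed for 6 (Rsph1, Rsph4a, Rsph9, Cfap69, Cfap161 and Cfap206, background 0.346%), all toward a less negative difference in KO mice. From WT to KO 23 fell in BALB (7.48% of all genes did) and 10 in NOD (4.70%), with medians of -0.66 and -0.23. Foxj1, the master regulator of motile cilia, was 0.61 lower in NOD between WT mice (adjusted p = 0.025) and 0.04 higher between KO mice (adjusted p = 0.91). Its interaction did not pass, so a genotype difference is not read from these values. The family has no test as a whole, and the choice of its members used these values.

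Gene lists of peripheral tissues are given next, beside the 4.67% of all genes that were higher and the 6.65% that were lower in NOD KO mice. Of 28 liver genes 0 were higher and 9 lower in NOD KO than in BALB KO mice, with a median of -0.29 against 0.03 over all genes. Ttr, the thyroxine carrier transthyretin, read 7.86, 5.80 and 7.12 against 9.70, 9.52, 8.57 and 9.99 (-2.52, SE 0.40, adjusted p = 0.0004). Apob, the structural protein of lipoproteins, read 5.51, 5.90 and 6.04 against 8.27, 7.83, 7.51 and 9.02 (-2.34, SE 0.40, adjusted p = 0.00075), and its second probe set, dim in both groups, did not pass. The fibrinogen chain Fgg differed by -1.81, Apoc3 by -1.74, Apoa4 by -1.22 and the acute phase protein Saa3 by -0.92. Apob was level in WT mice (0.02, adjusted p = 0.99) and its interaction, -2.36, passed with pairs blocked alone (adjusted p = 0.0082 against 0.14). Between WT mice 2 liver genes were higher and 4 lower, with a median of -0.15. Apoa1, Apoc3 and Apoa4 neighbour each other in the genome.

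Of 22 intestine genes 1 was higher and 7 lower, with a median of -0.45; between WT mice 0 were higher and 3 lower, with a median of -0.36. Fabp2, the intestinal fatty acid-binding protein, read 5.31, 5.71 and 5.39 against 7.28, 7.70, 7.51 and 9.04 (-2.41, SE 0.30, adjusted p = 2.8e-05). Vil1, the microvillus protein villin, differed by -1.84, Reg3b, an antimicrobial lectin, by -1.60, Lgals4 by -1.14, and the guanylin genes Guca2a and Guca2b by -1.11 and -0.68. Fabp6, the ileal bile acid-binding protein, moved the other way, at 10.92, 11.03 and 10.73 in NOD KO and 8.03, 8.35, 8.22 and 7.83 in BALB KO mice (2.79, SE 0.34, adjusted p = 2.7e-05). Fabp6 fell by 1.84 from WT to KO in BALB (adjusted p = 0.00092) and differed by 0.25 in NOD; the interaction was 2.10 (adjusted p = 0.11, and 0.0017 with pairs blocked). Fatty acid-binding genes of a single family thus differed in opposite directions between the same mice. The Reg3b call was lost without NOD KO mouse 2 (adjusted p = 0.062), and its other probe set did not pass (-0.33, adjusted p = 0.49).

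**Figure D4:**
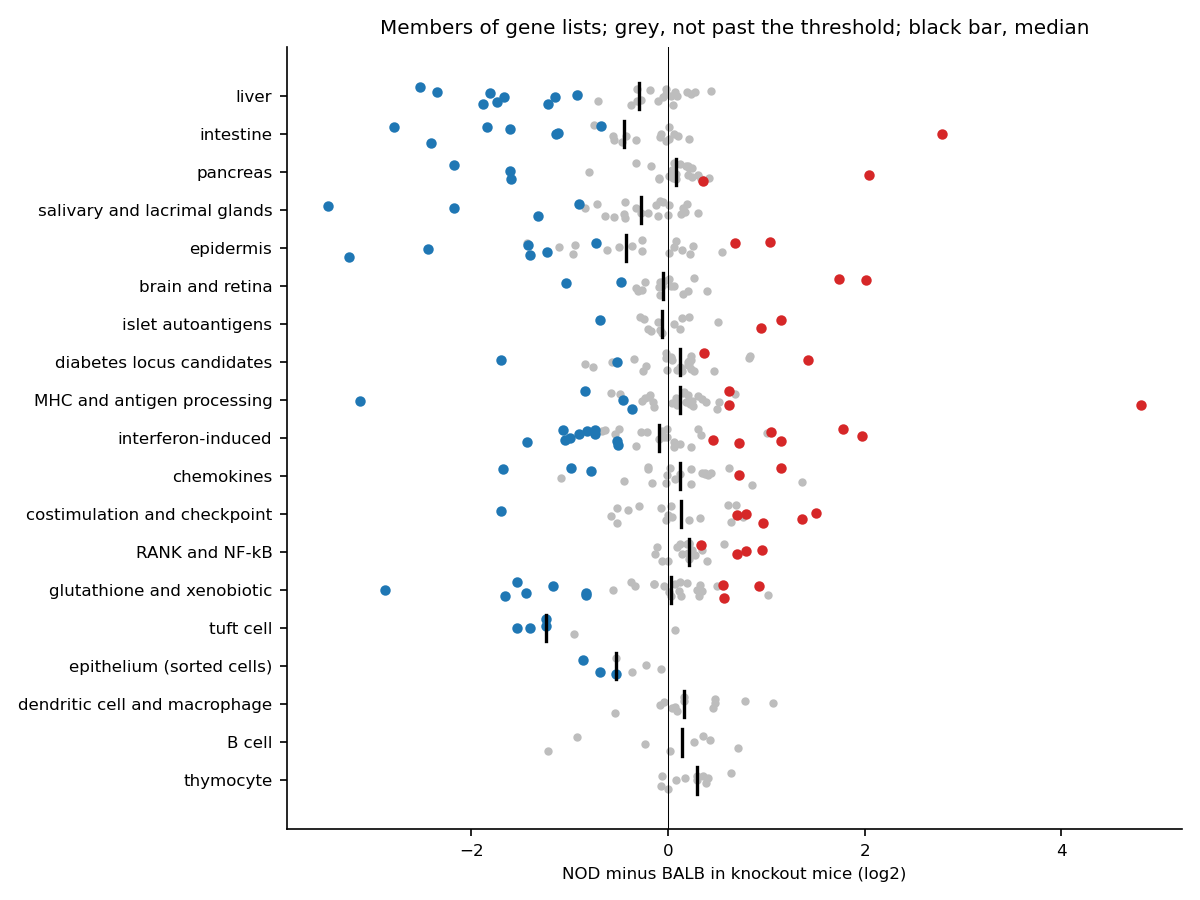
NOD minus BALB difference in KO mice (x axis, log2) of each measured member of 19 gene lists, red where higher and blue where lower in NOD past the threshold, grey otherwise, with a black bar at each list's median. Liver and tuft cell members that passed all lie left of 0, whereas interferon and MHC members lie on both sides.

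Of 26 pancreas genes 2 were higher and 3 lower. Spink1, the pancreatic trypsin inhibitor, read 6.35 to 6.86 in NOD KO against a BALB KO mean of 8.76 without overlap (-2.18, SE 0.29, adjusted p = 6.7e-05), and Reg1, a regenerating islet-derived lectin, differed by -1.60; Gcg and the elastase Cela3b (0.35, adjusted p = 0.05) were higher. The Cela3b call was lost without any KO mouse except BALB KO 3 (adjusted p = 0.082 to 0.171), and without NOD KO mouse 2 the list had 1 higher and 2 lower. Of 24 epidermis genes 2 were higher and 6 lower, with a median of -0.43. Beside Lor these were Krt77 (-2.44), Calml3 (-1.43), the suprabasal keratin Krt10 (-1.40), Sbsn (-1.23) and Ivl, involucrin (-0.73), whereas Krt79 and Sprr1b (0.69) were higher. Between WT mice 0 were higher and 8 lower in that list, with a median of -0.46, and without NOD KO mouse 2 the KO counts were 1 and 4, with Sbsn among the lost (adjusted p = 0.051). The Ivl call was lost without any KO mouse (0.055 to 0.14). Nefl and Nefm, neurofilament chains that neighbour each other, were 1.74 and 2.01 higher in NOD KO mice, within a brain and retina list of 20 with 2 higher and 2 lower; without NOD KO mouse 1 it had 2 higher and 0 lower.

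The calls of the other tissue lists are set against 11.3% of all genes in either direction. Milk proteins gave 0 calls of 10. Testis and oocyte genes gave 1 of 20 (Acrv1, 0.49, lost without any of 5 KO mice) and cell cycle genes 1 of 20 (Mcm6, 1.12, lost without NOD KO mouse 3, adjusted p = 0.071). Of 11 stomach genes Tff2, a trefoil peptide (0.77), and Ghrl, ghrelin (0.40), were higher, the latter not without NOD KO mouse 1 or 2 (0.059 and 0.083). Of 19 striated muscle genes desmin, Des (1.01), was higher and the fast-fibre genes Myh4 (-1.66) and Tnni2 (-0.78) lower. Aire and its partners gave 1 of 23, Aire itself, whose difference of 0.95 (adjusted p = 0.018) was lost without BALB KO mouse 4 or NOD KO mouse 1 or 2 (0.063, 0.051 and 0.087). Over all 35 lists 110 of 559 distinct measured genes passed, and 72 without NOD KO mouse 2, against 11.3% of all genes; the lists were chosen with results known, so nothing is read from that share.

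Islet autoantigens are the targets of T cells in diabetes, and 3 of 15 differed past the test (11.3% of all genes did). Gad1, a glutamate decarboxylase, read 9.65, 9.16 and 8.78 in NOD KO against 7.92, 7.87, 8.42 and 7.97 in BALB KO mice (1.15, SE 0.23, adjusted p = 0.0036). Prph, the intermediate filament peripherin, was 0.95 higher (adjusted p = 0.037), and Chga, chromogranin A, 0.69 lower (9.33, 9.38 and 9.32 against 9.98, 10.21, 10.02 and 9.94, adjusted p = 0.00096). Ins2 differed by 0.12 (SE 0.17, adjusted p = 0.76), with 6.71 to 7.10 in NOD KO and 6.58 to 7.09 in BALB KO mice. The Prph call was lost without any KO mouse except BALB KO 1 (adjusted p = 0.068 to 0.128), and the other probe set of Gad1 did not pass (0.27). Leaving out single KO mice gave 2 to 4 calls in this list.

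Of 31 candidate genes of diabetes loci, 2 were higher and 2 lower, a share near the 11.3% of all genes. Ctla4, an inhibitory receptor best known from T cells, read 7.59, 7.40 and 6.93 in NOD KO and 9.10, 8.87, 8.92 and 9.15 in BALB KO mice (-1.70, SE 0.18, adjusted p = 8.1e-06). It rose by 2.04 from WT to KO in BALB (adjusted p = 3.6e-07), while the 0.61 in NOD did not pass (adjusted p = 0.11), and the interaction was -1.43 (adjusted p = 0.025). In B6 KO mice it averaged 10.53 (SD 0.31, n = 3), above both strains. Il2ra, the alpha chain of the interleukin-2 receptor, read 8.44, 8.69 and 8.32 against 6.90, 7.21, 7.25 and 6.87 (1.42, SE 0.14, adjusted p = 2.1e-06). In WT mice Il2ra was 0.62 higher in NOD (adjusted p = 0.01), and its interaction passed with pairs blocked (0.81, adjusted p = 0.0091) and not otherwise (0.15). Dexi was 0.36 higher (adjusted p = 0.018), and Ifih1, an RNA sensor, 0.51 lower (adjusted p = 0.027). Without NOD KO mouse 2 the list had 1 call each way; the Dexi call was lost (0.13), and that of Ifih1 without BALB KO 4 or any NOD KO mouse (0.052 to 0.12). Markers of T lineage cells, which also carry Ctla4 and Il2ra, gave 0 calls of 11, with a list mean of 6.34 to 7.08 in NOD KO and 6.38 to 6.72 in BALB KO mice, and their part in these differences was not tested.

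Among 32 measured genes of MHC and antigen processing 3 were higher and 4 lower. Beside this list and the RANK list below, 4.67% of all genes were higher and 6.65% lower. The brightest H2-Ea probe set read 9.38, 9.11 and 9.10 against 12.46, 12.46, 12.29 and 12.11 (-3.13, SE 0.15, adjusted p = 1.9e-10), and the probe set with the widest range -7.84 (adjusted p = 4.3e-16), so the size depends on the probe set. Of the processing genes, the immunoproteasome subunit Psmb8 (0.62) and the proteasome activator Psme1 (0.62) were higher, and the peptide-loading protein Tapbp (-0.37) lower. H2-M3 (-0.46) and H2-Q10 (-0.85) were lower too. Without BALB KO mouse 2 the list had 3 higher and 1 lower. The H2-Q10 call was lost without BALB KO 2, 3 or 4 or NOD KO 1 or 3 (adjusted p = 0.072 to 0.21), Psmb8 without NOD KO 1 or 2 (0.07 and 0.071) and Psme1 without NOD KO 2 (0.095). The other probe set of Psmb8 passed (1.18, adjusted p = 0.0037). Of RANK and NF-kB genes, the signals on which these cells depend, 4 of 21 were higher and 0 lower: Traf1 (0.95), the RANK decoy Tnfrsf11b (0.79), RANK itself, Tnfrsf11a (0.70), and Nfkbib (0.34). Tnfrsf11a read 9.35, 9.47 and 9.21 against 8.67, 8.57, 8.76 and 8.57 (SE 0.14, adjusted p = 0.0028). The other probe sets of Tnfrsf11a (-0.27), Tnfrsf11b (-0.17) and Nfkbib (0.02) did not pass, and that of Traf1 did (0.91). Without BALB KO mouse 1 that list had 2 higher; the call of Nfkbib was lost without any KO mouse except BALB KO 2 (0.066 to 0.17), and that of Tnfrsf11b without any except BALB KO 3 (0.061 to 0.12).

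Of 22 costimulation and checkpoint genes 5 were higher and 1, Ctla4, lower. The background for this list and the interferon list below is 4.67% of all genes higher and 6.65% lower. Cd83, which stabilises class II on the surface, read 10.39, 10.92 and 10.21 against 9.04, 9.65, 8.44 and 8.89 (1.50, SE 0.33, adjusted p = 0.0072), Cd200 differed by 1.37 and the CD27 ligand Cd70 by 0.97. Without NOD KO mouse 2 the list had 2 higher and 1 lower, and the calls of Cd83 and Cd200 were lost (adjusted p = 0.057 and 0.065). Of 35 interferon-induced genes 6 were higher and 10 lower, so the list did not move one way. Trim30d (1.97), Gbp2 (1.78), the chemokine Cxcl10 (1.15), Oasl2 (1.04), Cxcl9 (0.72) and Gbp8 (0.46) were higher. Ifit2 (-1.43), Ifi202b (-1.07), Cxcl11 (-1.04), the antiviral Rsad2 (1.99-fold lower) and Irgm2 (-0.90) differed most among the lower genes. Cxcl10 and Cxcl11 are ligands of the same receptor, CXCR3, and neighbour each other: Cxcl10 read 12.46, 12.46 and 12.54 against 11.78, 11.87, 11.24 and 10.46, and Cxcl11 10.42, 10.24 and 10.25 against 11.54, 11.44, 11.39 and 11.02. Without NOD KO mouse 2 the interferon list had 2 higher and 5 lower, and the Cxcl10 call was lost without BALB KO mouse 4 or any NOD KO mouse (adjusted p = 0.053 to 0.069). Single mice also ended the calls of Cxcl9 (BALB KO 3 or 4 or any NOD KO, 0.051 to 0.13), Gbp2 (NOD KO 2 or 3, 0.067 and 0.062) and Ifi202b (BALB KO 2 or 4, NOD KO 1 or 2, 0.078 to 0.14). The other probe set of Cxcl9 passed (1.14, adjusted p = 7.9e-05), and that of Gbp2 did not (1.25, adjusted p = 0.077).

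Of 25 chemokines 2 were higher (Cxcl9 and Cxcl10) and 3 lower (Ccl25, Ccl9 and Ccl2), and without BALB KO mouse 4 it was 0 and 2. All lists of this paragraph stand beside 4.67% of all genes higher and 6.65% lower. Ccl25, which draws thymocyte precursors and is also on the cortical epithelium list, read 10.01, 9.83 and 9.84 in NOD KO against 11.81, 11.81, 11.32 and 11.33 in BALB KO mice (-1.67, SE 0.23, adjusted p = 9.2e-05), and its other, dimmer probe set did not pass (0.15). It was the single call among 10 cortical markers; Psmb11, the defining proteasome subunit of cortical cells, read 6.20, 6.31 and 7.41 against 5.90 to 6.43. Of 29 glutathione and xenobiotic genes 3 were higher and 7 lower. Cyp2f2, a cytochrome P450 of airway club cells, read 5.23, 5.23 and 5.85 against 8.31, 8.37, 7.89 and 8.69 (-2.88, SE 0.28, adjusted p = 2.2e-06), and the transferases Gstt1 (-1.66), Gsta4 (-1.53), Gsta2 (-1.45), Gstm2 (-1.17) and Gstt3 (-0.83) were lower with it, as was Gclm (-0.84) of glutathione synthesis. Gstm6 (0.92), Cyp1b1 (0.57) and Gstk1 (0.56) were higher. Of 19 complement genes Cd59a, which blocks lysis, was higher (1.41), and Cfi (-1.05) and C1s1 (-0.98) lower, the latter not without NOD KO mouse 2 or 3 (adjusted p = 0.054 and 0.068).

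Tuft cells are chemosensory epithelial cells that occur in the thymic medulla. Of 6 measured markers 4 were lower between KO mice and 3 between WT mice, with medians of -1.24 and -1.40, and 0 were higher (of all genes 6.65% were lower between KO and 5.25% between WT mice). Avil, the actin-binding protein advillin, read 6.97, 7.06 and 7.22 in NOD KO against 8.30, 8.65, 8.41 and 9.12 in BALB KO mice (-1.53, SE 0.28, adjusted p = 0.0015). The tuft cytokine Il25 read 5.46, 5.55 and 5.51 against 7.05, 7.43, 6.23 and 6.26 (-1.24, SE 0.24, adjusted p = 0.0028). The kinase Dclk1 differed by -1.41 (adjusted p = 0.016) and the channel Trpm5 by -1.24 (adjusted p = 0.039). Pou2f3, the factor that specifies tuft cells, did not differ past the test (0.07, SE 0.13, adjusted p = 0.83), at 6.91 to 7.22 against 6.84 to 7.14. Mean levels over the list were 6.97 to 7.08 in NOD KO and 7.91 to 8.41 in BALB KO mice. Without BALB KO mouse 4, the highest of the BALB KO mice for 3 of the 4, the count was 2 of 6. The calls of Dclk1 (BALB KO 4, NOD KO 2 or 3, adjusted p = 0.057 to 0.081) and Trpm5 (BALB KO 4 or any NOD KO, 0.084 to 0.12) were those lost without single mice. Other Dclk1 probe sets passed at -1.82, -1.33, -0.96, -1.84 and -1.61, and those at -0.13, -0.78 and -0.11 did not. The other probe sets of Trpm5 passed (-1.93 and -1.08).

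**Figure D5:**
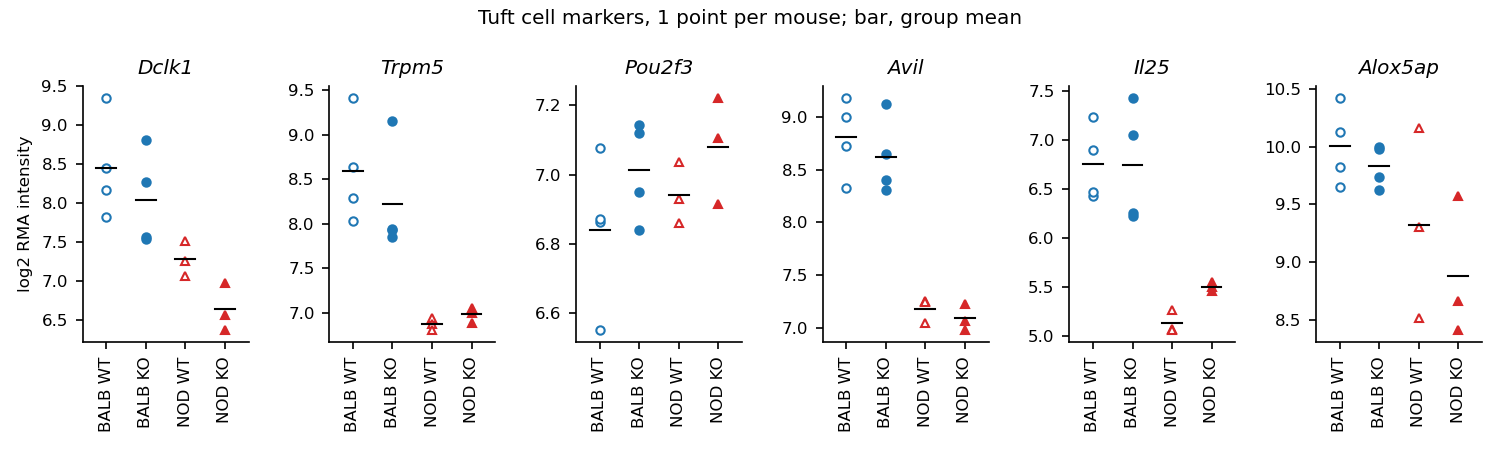
Log2 intensity (y axis) of 6 tuft cell markers in WT (open) and KO (filled) mice of BALB (circles) and NOD (triangles), with a bar at each group mean. NOD mice lie below every BALB mouse for Trpm5, Avil and Il25 in both genotypes, and the strains overlap for Pou2f3.

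Markers of other cells that a sort can carry were counted in the same way, against 11.3% of all genes. Dendritic cell and macrophage markers gave 0 calls of 13, B cell markers 0 of 8, NK and innate lymphoid markers 0 of 7 and red blood cell markers 0 of 4. Their list means overlapped or nearly so between KO groups, for example 7.56 to 8.89 in NOD and 7.44 to 8.39 in BALB for dendritic cells and macrophages. Lyz2, known from macrophages, read 11.48 to 12.43 in NOD KO and 11.18 to 12.10 in BALB KO mice. Which cells gave the Lyz2 signal was not tested. Fibroblast markers gave 2 higher (Col1a2 0.76, Mfap5 0.48) and 1 lower (Dcn -1.38) of 9, and endothelial markers 1 lower (Tek -0.81) of 9, and 0 without BALB KO mouse 2. Of 7 epithelial markers all differences were below 0 and 3 passed: Cldn3 (-0.86), Cdh1 (-0.69) and Krt18 (-0.53), and Cldn3 alone without NOD KO mouse 2. Of 14 markers of mature medullary cells 3 were higher (Aire, Cd83 and Tnfrsf11a) and 1 lower (Ivl), and 1 was higher without NOD KO mouse 2. Of 8 markers of immature medullary cells 1 was higher (Krt15, 0.59) and 2 lower (Cldn3 and Trp63, -0.83), and 0 and 1 without BALB KO mouse 1; the other 3 probe sets of Trp63 did not pass (0.17, 0.20 and -0.38). The part of these markers in the other differences was not tested. Dissociation stress genes gave 0 calls of 14. The Gapdh 3' minus 5' signal, a sign of RNA quality and amplification, was 2.49, 2.19 and 2.15 in NOD KO and 2.44, 2.34, 2.78 and 2.93 in BALB KO mice, and its part was not tested gene by gene beyond a covariate that left 5305 probe sets past the threshold.

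Genes past 2-fold sometimes lay side by side. Of 702 such genes with a place in the RefSeq order of 18030 genes, 112 lay in 52 runs of adjacent genes, 7 of them of 3 or more. The carboxylesterases Ces2a (-1.74), Ces2b (-1.02), Ces2e (-1.41) and Ces2f (-1.07), enzymes that cleave esters in gut and liver, were all lower in NOD KO mice. The aldehyde oxidases Aox1 (-1.01), Aox3 (-1.17) and Aox4 (-2.99) were lower too, with Aox4 at 5.67, 5.70 and 5.74 against 8.44, 8.60, 8.52 and 9.21. The calcium-binding genes S100a14 (-1.17), S100a16 (-1.41) and S100a3 (-2.31) formed the other named run, S100a3 reading 7.02, 7.23 and 7.22 against 9.63, 9.78, 9.48 and 8.96. Aox1, Aox3, Aox4, S100a14, S100a16 and S100a3 were also lower in NOD among WT mice (adjusted p of 0.043 or less), as was Ces2e (0.037), and Ces2a, Ces2b and Ces2f were not past the test there. Neighbours of a family may share probe signal. The Ces2b call was lost without BALB KO mouse 1 or 4 or NOD KO mouse 2 or 3 (adjusted p = 0.054 to 0.094).

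B6 KO mice show which strain stands apart, as a description. Of 703 genes past 2-fold without overlap, the B6 KO mean was nearer to BALB for 409 and nearer to NOD for 294, and lay between the strains for 487, above both for 128 and below both for 88. The share of all genes whose NOD and BALB KO mice do not overlap was 26.3%. Zfp979 averaged 3.58 in B6 KO mice (SD 0.21, n = 3), near BALB, as did Trim12c (8.48, SD 0.08) and D17H6S56E-5 (13.22, SD 0.01). Itpripl2 (10.04, SD 0.22) was near NOD, as was Rbm45 (5.52, SD 0.37), and H2-Q2 (9.55, SD 0.21) stood above NOD. For the genes of the interaction, Fabp1 averaged 7.81 (SD 0.12) and Apoa1 6.93 (SD 0.23) in B6 KO mice, between the strains, and Krt20 10.64 (SD 0.42) and Apoh 7.87 (SD 0.04), near BALB.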

How the data were processed

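Gene expression was measured in sorted thymic epithelial cells on an Affymetrix mouse array; per the labels' protocols, Trizol RNA was amplified in 2 rounds and labelled. The deposited intensity values, made with RMA per the submitters' processing notes, are linear; its version, settings and the arrays normalized together are unknown here. RMA evens out array-wide shifts. Their log2 was fitted with limma 3.58.1 in R 4.3.3 (6 group means, 20 arrays, 14 residual degrees of freedom; lmFit, eBayes, Benjamini-Hochberg over 45037 probe sets after leaving out 64 controls). No detection calls or counts were used, so depth does not apply and the number of arrays limits the precision. The annotation table gave 1 symbol for 34945 probe sets, several for 932 and none for 9160; a gene is its brightest probe set. Sequences, gene order and names come from RefSeq (GRCm38.p6).

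The members and lists were chosen with earlier results of these data known. Genes named are the 14 largest differences each way without overlap between KO groups and the 10 largest interactions each way. Added to these are up to 5 list members each (up to 2 where none passed), label checks and 3 neighbour runs. The runs were ranked by length and, at equal length, by summed absolute difference. Other genes were named after their values were seen. Same-numbered WT and KO mice of BALB and NOD were taken as pairs because all 7 correlated above 0.1, so the pairing was inferred from these data. B6 mice were blocked by number too, although B6 pair 3 correlated at -0.13. Numbers do not pair the strains (KO correlations -0.31, 0.01 and -0.33). Mice are individual animals. The code was tested on simulated data. Alternatives covered scaling, filters, variance models, blocks and leaving out mice; the Gapdh covariate and leaving out mice for the lists were added after seeing the data.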

Additional observations from a re-analysis of the deposited data

Results flagged for a closer look

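In 7 of 96 groups of 4 BALB mice examined for 48 genes, a single mouse lay far from the other 3; chance flags about 1 in 20 such groups. For H2-Q2, BALB KO mouse 2 read 3.93 (the others 3.35 to 3.38) and BALB WT mouse 2 read 3.21 (the others 3.41 to 3.45), both far below NOD. For Slc25a31, BALB KO mouse 1 read 6.21, between the other BALB KO mice (4.12 to 4.29) and the NOD KO mice. BALB KO mouse 4 stood apart for Gcg (7.01, the others 5.60 to 5.83), Farp2 (8.02, the others 7.37 to 7.48) and Dusp15 (7.81, the others 8.13 to 8.18). For Aire, BALB WT mouse 4 read 9.31, the others 10.48 to 10.71.

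The strain difference differed between KO and WT mice, by the interaction test, for 20 named genes. It was more positive in KO mice for Defb19 (2.18), Serpina9 (2.09), Lrit2 (1.94), Krt79 (1.92), Rsph1 (1.92), Fam183b (1.82), Gcg (1.81), Cfap69 (1.77), Ddc (1.62) and Itln1 (1.59). It was more negative for 1700110I01Rik (-2.93), Fabp1 (-2.62), Krt20 (-2.60), Farp2 (-2.10), Apoh (-2.02), Gstm3 (-1.93), Apoa1 (-1.87), Cyp3a11 (-1.82), Cldn9 (-1.81) and Dusp15 (-1.75). The limma adjusted p ranged from 0.00045 for 1700110I01Rik to 0.042 for Defb19.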

How the results depend on the processing

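The NOD minus BALB count in KO mice (3959 probe sets) was 7475 with array weights and 1279 with a 2-fold limit, and 2296 to 3516 without 1 mouse. Between WT mice (2764) these were 4745, 909 and 1792 to 2700. The interaction count (100) was 55 over probe sets above the median level, 257 with array weights, 171 with the replicate number as a fixed replicate block, 501 with pairs within strain as a random block (estimated correlation 0.47), 499 with fixed pairs as a block, 209 with the code run as a block, 154 with the Gapdh covariate, and 45 to 108 without 1 mouse. KO minus WT in NOD (1903) gave 1248 above the median level, 6795 with array weights, 4894 with random pairs, 3090 with the code run, 954 at 2-fold and 1180 to 2034 without 1 mouse; in BALB (3079) it gave 1816 above the median level, 8133 with random pairs, 4911 with the code run, 993 at 2-fold and 2288 to 3413 without 1 mouse. Persisting probe sets (1749) were 621 at 2-fold and 2875 with array weights, and 1259 to 1747 without 1 mouse. Genes of the lists that passed (110) were 72 to 106 without 1 KO mouse. The cause of these shifts was not tested, other than that a limit or filter leaves fewer probe sets. No named call reversed its direction under the alternatives run, but the larger direction of some counts changed. Of the probe sets past the interaction test 52.0% were more positive in KO mice, and 40.0% over probe sets above the median level. The share of higher probe sets in KO minus WT of BALB went from 37.6% to 53.9% with random pairs, and with the code run as a block the list medians of diabetes candidates (0.12 to -0.03), chemokines (0.12 to -0.20) and complement (0.08 to -0.22) changed sign, among others. Of 128 named genes past the threshold in KO mice, 89 passed under every alternative with a test, and of 20 named interactions 10 did. With the replicate number as a block across strains, whose numbers do not pair, 4685 probe sets passed in KO mice. Centring on the 75th percentile moved the share of higher probe sets from 43.2% to 51.5%. Dim probe sets had no detection call, so differences from them may be understated.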

Other observations

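In Fabp6, Gcg and Itln1 the NOD KO mice stood near or above their WT mates while the BALB KO mice stood below theirs, and in Fabp1, Krt20, Cyp3a11 and Apoh the reverse held. With same-numbered mice blocked as pairs, 140 genes had a more negative and 170 a more positive strain difference in KO than in WT mice, of 18193 tested (0.77% and 0.93%). Of 28 liver genes 4 were more negative (Apoa1, Apob, Apoh and Cyp3a11) and 2 more positive (Fga, 1.31, and Hp, 1.79) in that fit, and of 25 salivary and lacrimal genes 3 were more negative (Klk1b1, Klk1b11 and Klk1b16) and 1 more positive (Mucl1).

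Decorin, Dcn, a matrix proteoglycan, read 10.08, 10.01 and 9.69 in NOD KO and 11.22, 11.31, 11.24 and 11.47 in BALB KO mice. From WT to KO it rose by 1.96 in BALB (adjusted p = 2.1e-06, limma) and by 0.85 in NOD (adjusted p = 0.032), and the strain difference was -1.38 in KO and -0.27 in WT mice (adjusted p = 0.55), with an interaction of -1.11 that did not pass without blocking (adjusted p = 0.25). The second, dimmer probe set of Dcn did not differ between KO groups (0.03, adjusted p = 0.92), and its interaction was -0.01. Past the test from WT to KO, 3 of the 9 fibroblast markers fell and 2 rose in BALB, Dcn included. In NOD 3 fell and 1 rose. Of all 18193 genes 1360 fell and 525 rose in BALB, and 855 fell and 342 rose in NOD. Col1a2 and Mfap5 fell in both strains. Prokr2 also rose in both, by 1.84 in NOD and 1.32 in BALB, and kept its strain difference.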
